A study of Mus musculus with 2 samples.

Results

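The genes described are the nuclear-encoded subunits of the respiratory chain and ATP synthase, 87 of the 46984 genes in the count tables, in islet endocrine cells with and without a functional Isl1 gene. They were taken by symbol, as every gene whose name begins with Nduf and a, b, c, s or v, with Uqcr, with Cox4 to Cox8, or with Atp5, leaving out Cox6a2 and symbols marked as pseudogenes. The rule uses no measured value. It gave 36 subunits of complex I, 8 of complex III, 18 of complex IV and 15 of complex V. A further 9 are assembly factors or other genes that share the prefixes (Ndufaf1 to Ndufaf7, Atp5s and Atp5sl), and 1, Cox7a2l, helps join complexes III and IV into supercomplexes.

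The respiratory chain sits in the inner mitochondrial membrane. Complex I takes electrons from NADH, complex III passes them from ubiquinol to cytochrome c, and complex IV hands them to oxygen. The protons they pump drive complex V, the ATP synthase. Most subunits are encoded in the nucleus and a few in mitochondrial DNA, so complexes I, III, IV and V each need both genomes, while complex II is wholly nuclear-encoded. In beta cells the ATP made from glucose closes potassium channels and so triggers insulin release.

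The study profiled single cells of pancreatic islets from mice aged 1 month in 2 libraries, 1 per genotype. The Isl1CKO mice were Neurod1 Cre/+; Isl1f/f, so both copies of Isl1, a transcription factor of islet endocrine cells, could be removed where the Neurod1 gene drives Cre recombinase, that is in endocrine cells and some neurons. The control mice were Neurod1 Cre/+; Isl1f/+, so they carried the same Cre allele and kept 1 unaltered Isl1 allele. In both genotypes cells were sorted for tdTomato, the red fluorescent reporter of Cre activity, and cells of 3 animals were pooled before capture with the 10x 3′ kit. Actinomycin D, which blocks transcription, was present during dissociation in both.

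The Isl1CKO library held 86086781 UMIs (unique molecular identifiers, each standing for 1 captured RNA molecule) and the control library 48685758. The filters kept 8144 Isl1CKO and 4193 control endocrine cells, whose median depth was 8149 and 9041 UMIs, and 8 of their barcodes occurred in both libraries. Isl1 itself was at 243.7 and 305.9 CPM. The files do not say which exons are removed, and counts from the 3′ end check nothing about the deletion, so the genotypes rest on the labels. Endocrine markers were high in both libraries (Chga, encoding chromogranin A, at 48630 CPM in Isl1CKO and 10010 CPM in control cells). The filter itself kept only cells with acinar, stromal, endothelial, leukocyte and Schwann markers together under 1% of UMIs, so that limit is not a result. Acinar genes took 0.612% of the RNA outside cells in the Isl1CKO library and 0.0313% in the control library, and 0.0177% and 0.0106% of the UMIs inside cells.

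The sex label of the control library went against its cells. The source label of the Isl1CKO animals reads female and male, and that of the control animals males. Cells with UMIs of Xist, the RNA that silences one X chromosome in females, and none from 4 Y-linked genes numbered 5331 of 8144 in Isl1CKO (65.5%) and 970 of 4193 in control (23.1%). Cells with the reverse pattern numbered 1679 (20.6%) and 1729 (41.2%). They are called female and male cells, and the comparisons between genotypes are also given within each sex. Only 3 mice went into each library, so a difference between female and male cells cannot be told apart from a difference between mice.

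Cells were grouped by what they transcribed. By lineage factors, 1548 Isl1CKO and 1637 control cells had UMIs of alpha cell factors, among them Irx1 and Irx2, and of no other lineage, and 3253 and 709 of the beta cell factors Pdx1 or Nkx6-1 alone. By hormones, 172 Isl1CKO and 1572 control cells had only glucagon at 1% of UMIs or more, 928 and 187 only insulin, and 7030 and 98 none of the 4 islet hormones. Isl1CKO cells of the alpha factor group held Irx1 (163.4 CPM, against 134.7 CPM in control) and Irx2 (153.5 against 127.5 CPM), with Gcg, the glucagon gene, at 2227 CPM against 318500 CPM in control. These groups therefore hold cells that share factors and differ in hormones. Levels are in CPM, the usual scale of UMI counts relative to the group's total, adjusted by TMM, which sets the bulk of genes equal between groups. Because 3′ counting gives each transcript about 1 UMI whatever its length, levels were not divided by length. Since each genotype has 1 library, differences between genotypes could not be checked against replicates and no test was made. All intervals are 95% intervals that cover counting error only. A gene counts as called higher or lower where its level differed by 1.5-fold or more and the interval excluded no change, among genes at 5 CPM or more in 1 of the groups compared.

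A regulatory feature that some members share is the binding sequence of NRF1, a transcription factor named for its role in activating respiratory genes. Its palindromic core, given in capitals in the sequences that follow, reads the same on both strands and was found in the promoters (250 bases before to 50 after the gene start, RefSeq, GRCm38.p6) of 7 of the 70 members with an entry (10%). It was found in 264 of all 27025 promoters (0.977%). The 7 members were Ndufa11, Ndufaf4, Ndufaf5, Uqcrc1, Cox6a1, Atp5k and Atp5g2. One promoter from each of the 4 complexes is shown to let the shared letters be seen in their surroundings, from the mouse genome GRCm38.p6 and in the direction of transcription. Capitals mark the NRF1 core, the 10 letters searched. The windows are chr17:56717512-56717811 on the plus strand for Ndufa11, chr9:108936398-108936697 on the plus strand for Uqcrc1, chr5:115348909-115349208 on the minus strand for Cox6a1 and chr5:108434350-108434649 on the minus strand for Atp5k.
Ndufa11: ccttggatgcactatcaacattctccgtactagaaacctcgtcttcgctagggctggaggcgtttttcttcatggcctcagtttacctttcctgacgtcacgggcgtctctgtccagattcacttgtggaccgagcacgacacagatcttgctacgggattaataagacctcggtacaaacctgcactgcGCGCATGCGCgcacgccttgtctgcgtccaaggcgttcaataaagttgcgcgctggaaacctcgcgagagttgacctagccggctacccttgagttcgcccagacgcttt
Uqcrc1: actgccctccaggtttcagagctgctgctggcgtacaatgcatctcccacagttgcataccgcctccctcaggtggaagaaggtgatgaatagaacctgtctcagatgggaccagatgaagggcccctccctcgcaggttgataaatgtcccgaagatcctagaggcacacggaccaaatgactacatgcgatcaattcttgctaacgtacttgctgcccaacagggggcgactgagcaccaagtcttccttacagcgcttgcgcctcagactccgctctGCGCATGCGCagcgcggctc
Cox6a1: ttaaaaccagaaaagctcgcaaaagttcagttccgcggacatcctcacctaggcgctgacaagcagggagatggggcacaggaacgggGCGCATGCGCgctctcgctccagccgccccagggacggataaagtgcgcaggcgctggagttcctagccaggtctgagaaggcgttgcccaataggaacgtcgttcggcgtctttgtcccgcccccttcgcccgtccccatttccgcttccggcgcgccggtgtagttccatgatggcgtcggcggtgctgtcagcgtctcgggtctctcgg
Atp5k: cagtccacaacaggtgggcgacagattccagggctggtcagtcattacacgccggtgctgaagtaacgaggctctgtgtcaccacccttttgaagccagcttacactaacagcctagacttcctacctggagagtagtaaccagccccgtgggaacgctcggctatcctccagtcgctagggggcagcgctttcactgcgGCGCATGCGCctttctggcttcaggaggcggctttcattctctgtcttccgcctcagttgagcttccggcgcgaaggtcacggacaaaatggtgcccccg
The first capital stands 60 bases before the gene start in Ndufa11 (-60), at -162 in Cox6a1, at -50 in Atp5k and at position 30 after the start in Uqcrc1. The ETS letters CCGGAAG (or CTTCCGG on the other strand), bound by GABPA, were in 14 of the 70 member promoters (20%) and in 9.12% of all promoters. The estrogen-related receptor letters AAGGTCA, on either strand, were in 7 (10%) and in 4.66% of all. A match is only a match of letters and says nothing of binding in these cells. The transcript of Nrf1 itself was at 13.9 CPM in Isl1CKO and 10.1 CPM in control cells.

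Over all endocrine cells the nuclear subunits were abundant and mostly close between the genotypes. Of the 87 members 80 were measured, and 73 of them lay within 1.5-fold of each other in Isl1CKO and control cells. Their median level was 177 CPM in Isl1CKO and 208 CPM in control cells, and 55 were at 100 CPM or more in both. The most abundant of each complex were Ndufb11 of complex I (501 CPM in Isl1CKO and 537 CPM in control cells), Uqcrh of complex III (471 and 496 CPM), Cox8a of complex IV (811 and 920.3 CPM) and Atp5e of complex V (737 and 840.0 CPM). The member median on the log2 scale was -0.069, against 0.047 over all 9916 genes measured, so it lay 0.12 below the median gene. There were 4 members called higher (5%) and 3 called lower (3.75%), while 16.2% of all genes were called higher and 14.7% lower. Both member shares were below those of all genes. The counts depend on the scaling, with 25 higher and 0 lower in unscaled CPM and 2 and 14 when hormone genes were kept out of the totals. Here and in the cell groups below, the shares of all genes called under these other scalings are not given. Such counts therefore show only how the members move with the scaling.

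**Figure D1:**
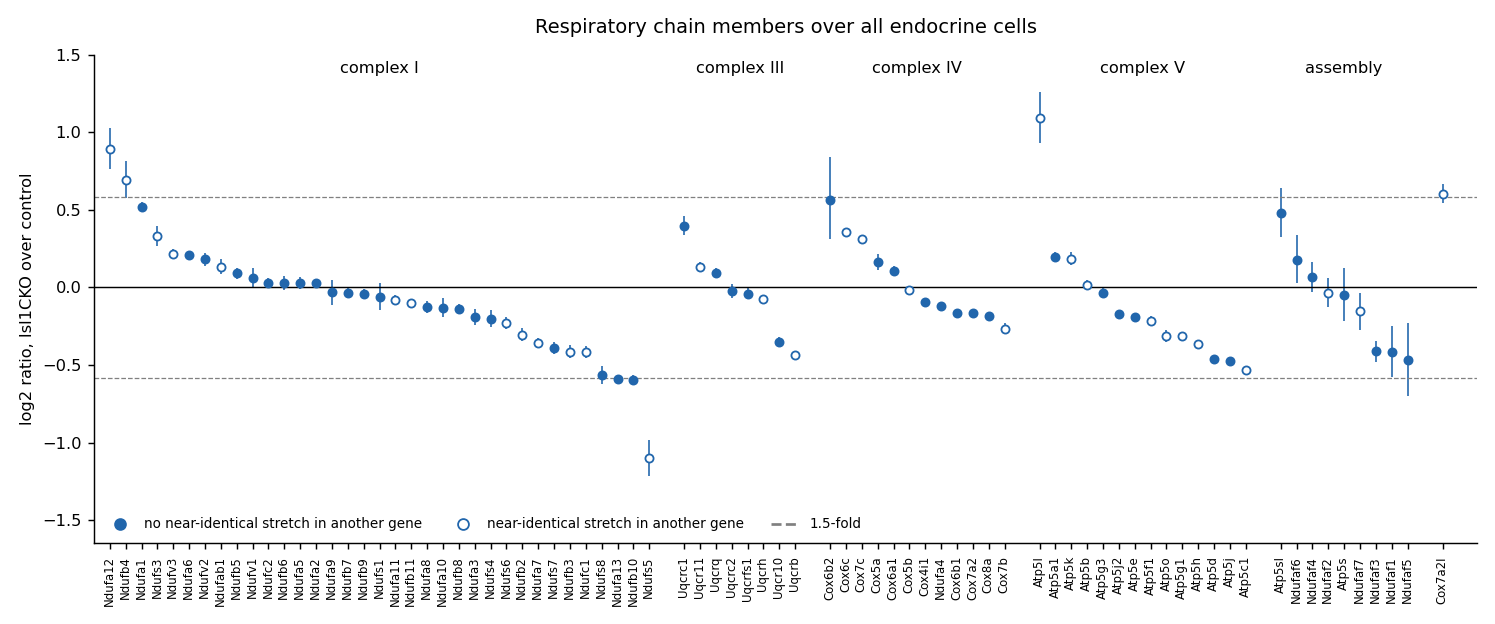
Log2 ratio of Isl1CKO over control over all endocrine cells for 79 of the 80 measured members, sorted within each complex. Points are single genes, bars are 95% counting intervals, open circles mark genes with a near-identical stretch in another gene, and dashed lines mark 1.5-fold. Most points lie between the dashed lines, and the complex V points sit lowest as a group with a median of -0.20.

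The core subunits of complex I named here stayed within 1.5-fold over all endocrine cells, some of them far closer than others. Ndufs1, which carries iron-sulfur clusters, was at 32.3 CPM in Isl1CKO and 33.7 CPM in control cells, and Ndufv1, which binds NADH, at 72.0 and 68.8 CPM. Ndufv2, its iron-sulfur partner, was at 165 and 145 CPM. Ndufs3 (74.0 and 58.8 CPM, with a near-identical stretch in 2 other genes) and Ndufs7 (139.7 and 183 CPM) also stayed within 1.5-fold. Ndufs8, another iron-sulfur subunit, was at 57.9 CPM in Isl1CKO and 85.7 CPM in control cells, a log2 ratio of -0.57 and just inside the 1.5-fold line. The median of the 36 complex I members was -0.070.

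Among accessory subunits of complex I, Ndufa13 and Ndufb10 were lower and share no near-identical stretch with another gene. Ndufa13, also known as GRIM-19, was at 272 CPM in Isl1CKO and 410.1 CPM in control cells, a log2 ratio of -0.59 (interval -0.62 to -0.56). Ndufb10, a subunit of the membrane arm, was at 176 and 265 CPM, also -0.59 (-0.63 to -0.56). Both stand at the 1.5-fold line, and 1 member in place of 3 was called lower in cells with at least 3000 UMIs. Ndufa1, an X-linked membrane-arm subunit, was at 366 CPM in Isl1CKO and 255 CPM in control cells (0.52), inside the limit, and the other 2 X-linked members were at -0.27 (Cox7b) and -0.099 (Ndufb11). The other 5 calls concern genes whose last 400 bases have a near-identical stretch (95% identity over 100 bases or more) in at least 1 other gene, so the counts may be split between copies and the values are uncertain. They were Atp5l (17.8 CPM in Isl1CKO and 8.33 CPM in control cells, with 12 such genes), Ndufa12 (23.6 and 12.7 CPM), Ndufb4 (25.8 and 15.9 CPM), Cox7a2l (102 and 67.2 CPM) and Ndufs5 (11.1 and 23.8 CPM). Over the whole set 32 members have such a stretch and 55 do not.

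Complexes III and IV had the member medians closest to 0 of the 4 complexes. Uqcrc1 and Uqcrc2, the core proteins of complex III, were at 86.3 CPM in Isl1CKO and 65.5 CPM in control cells and at 125 and 127 CPM, and the Rieske iron-sulfur protein Uqcrfs1 was at 179 and 184 CPM. The 8 complex III members had a median log2 ratio of -0.031 and the 12 measured complex IV members one of -0.055, with none called. Complex IV has isoforms that differ between tissues, and islet cells used the common ones. Cox4i1 was at 727 CPM in Isl1CKO and 776 CPM in control cells, against 0.14 and 0.20 CPM for Cox4i2, the isoform of lung. Cox7a2 was at 392 and 440.0 CPM, against 2.45 and 1.39 CPM for Cox7a1, the heart and muscle form. Cox8b had no UMI in any cell of either library, Cox8c had 1 UMI in Isl1CKO and 0 in control cells, and Cox7b2 was at 0.08 and 0.38 CPM, while Cox7b was at 169 and 203 CPM. Cox6b1 was at 364 and 408 CPM and its testis isoform Cox6b2 at 5.06 and 3.40 CPM. Cox6a1, the only isoform of its pair followed here, was at 237 and 219.8 CPM, and Cox6c at 443 and 346 CPM (0.35). Ndufa4, once assigned to complex I and now to complex IV, was at 364 CPM in Isl1CKO and 395 CPM in control cells, against 0.04 and 0.27 CPM for its isoform Ndufa4l2. The counting floor of 3 UMIs lies above the values of Cox8b and Cox8c in both libraries, so no ratio is given for them.

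Complex V was the complex with the lowest median, -0.20 over 14 measured members. The catalytic subunits Atp5a1 and Atp5b were at 254 CPM in Isl1CKO and 222 CPM in control cells and at 264 and 262 CPM. The gamma subunit Atp5c1, the rotating shaft, was at 252 and 364 CPM (-0.53), and the stalk subunit Atp5j at 316 and 439 CPM (-0.47). Atp5c1 has a near-identical stretch in 2 other genes. Among the measured members Atp5b, Atp5f1, Atp5g1, Atp5h, Atp5k, Atp5l and Atp5o have such stretches too, as do some members of the other complexes. The median and summed level of complex V carry that uncertainty. Of the 3 genes for the ring subunit c, Atp5g1 was at 267 CPM in Isl1CKO and 332 CPM in control cells, Atp5g3 at 211 and 216 CPM, and Atp5g2 at 2.80 and 2.53 CPM.

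Summed over its nuclear subunits, each complex reached 6225 CPM in Isl1CKO and 6607 CPM in control cells (complex I), 1876 and 1999 CPM (complex III), 4417 and 4522 CPM (complex IV), and 3854 and 4531 CPM (complex V). The log2 ratios were -0.086, -0.091, -0.034 and -0.23, all negative with this scaling and all positive without it. Without TMM the median of all genes stands at 0.59 on the log2 scale in place of 0.047. Scaling moves all genes alike, so the place of complex V below the median gene cannot change with it. In single cells the nuclear subunits took a median of 2.21% of all UMIs in Isl1CKO and 1.85% in control cells, but 2.27% and 3.00% once hormone genes were left out of the total. Ratios between groups of mitochondrial genes do not depend on that choice, and they differed as well. For each complex IV UMI there were 0.873 complex V UMIs in Isl1CKO and 1.002 in control cells.

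The mitochondrially encoded subunits stood apart from the nuclear ones. Of the 13 genes 8 were measured and 6 were called higher and 0 lower, while 16.2% of all genes were called higher and 14.7% lower. The genes mt-Nd4l, mt-Co2, mt-Co3, mt-Atp6 and mt-Atp8 are listed at 0 UMIs in both libraries. Summed, the 13 genes were at 7935 CPM in Isl1CKO and 5052 CPM in control cells, a log2 ratio of 0.65 (0.64 to 0.66). The complex IV catalytic subunit mt-Co1 was at 524 and 207 CPM, the complex I subunit mt-Nd1 at 1325 and 700.3 CPM, and mt-Cytb of complex III at 3897 and 2759 CPM. There were 0.485 mitochondrially encoded UMIs for each nuclear subunit UMI in Isl1CKO and 0.286 in control cells. The same ratio was 0.506 and 0.292 among male cells, 0.463 and 0.273 among female cells, 0.387 and 0.290 in the alpha factor group and 0.542 and 0.300 in the beta factor group. It was higher in Isl1CKO in each of these. The share of mitochondrial UMIs is also a sign of RNA quality, with a median per cell of 1.52% in Isl1CKO and 0.630% in control cells, and its part in this ratio was not tested.

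**Figure D2:**
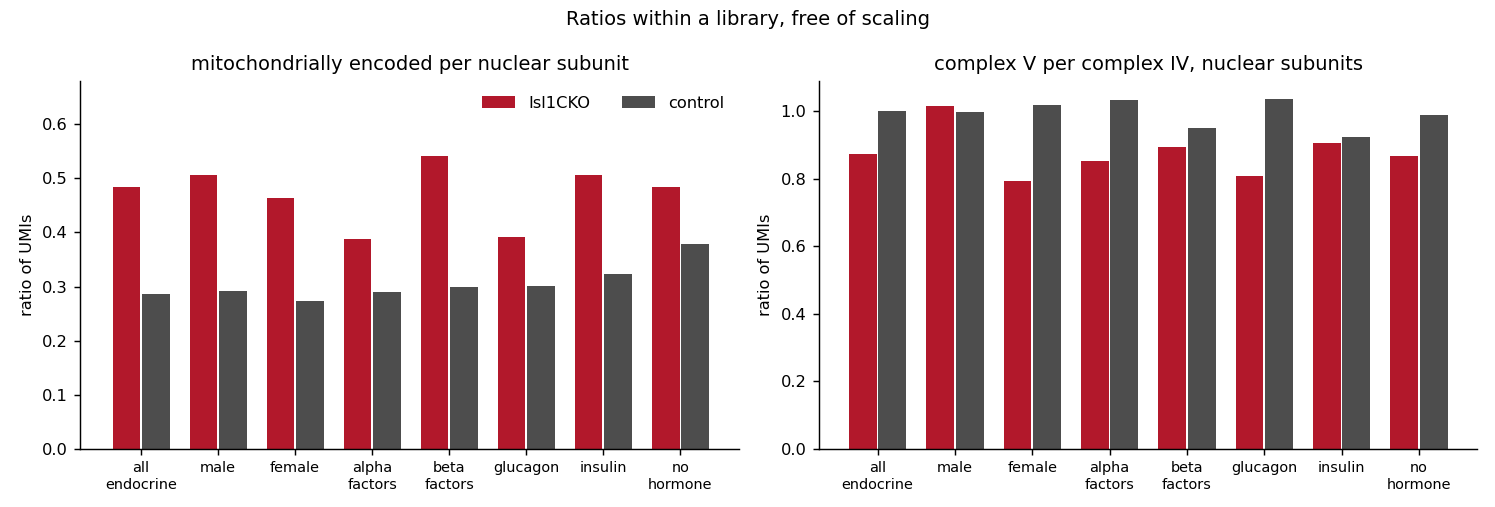
Ratios of summed UMIs that do not depend on scaling, by cell group, Isl1CKO left of control: mitochondrially encoded UMIs per nuclear subunit UMI, and complex V per complex IV UMIs. The first ratio is higher in Isl1CKO in every group shown, and among the 8 groups drawn the second is lowest in Isl1CKO female cells (0.794) and Isl1CKO glucagon cells (0.810).

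Other mitochondrial gene lists give the setting. The 4 genes of complex II, which links the citrate cycle to the chain, all stayed within 1.5-fold, with a summed level of 295 CPM in Isl1CKO and 268 CPM in control cells. Of 29 measured assembly factors outside the set 0 were called higher and 7 lower. They include Higd1a (24.4 and 80.2 CPM) and Coa3 (139.8 and 302 CPM), both linked to complex IV, and Uqcc2 (245 and 421 CPM), linked to complex III. Of 74 measured genes of the mitochondrial ribosome 0 were higher and 12 lower, while of 85 of the cytosolic ribosome 13 were higher and 0 lower, while 16.2% of all genes were called higher and 14.7% lower. The citrate cycle had 1 of 12 lower, fumarase (Fh1, 42.2 and 71.5 CPM). Among genes of pyruvate entry and the shuttles 2 of 9 were lower, the glycerol phosphate dehydrogenase Gpd2 (18.6 and 42.1 CPM) and the ADP/ATP carrier Slc25a5 (144 and 271 CPM). Of 9 measured regulators 1 was higher, the nuclear receptor Esrrg (8.20 and 1.59 CPM), and 1 lower, the mitochondrial rRNA methyltransferase Tfb1m (2.22 and 5.44 CPM), with Tfam, which packages mitochondrial DNA, at 31.0 and 31.1 CPM.

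With TMM the member median lay above 0 in male cells and below 0 in female cells. In male cells 6 of 79 measured members were called higher in Isl1CKO and 2 lower, while 11.3% of all genes were called higher and 9.95% lower, and the member median was 0.082. In female cells 6 were higher and 11 lower, while 21.2% and 18.7% of all genes were, and the median was -0.11. Unscaled CPM gave 43 higher and 0 lower in male cells and 20 and 0 in female cells, and totals free of hormone genes gave 4 and 4 in male and 2 and 24 in female cells. Set against the median of all genes, the female member median was -0.18, but 0.13 when genes with low counts were kept. For each complex IV UMI there were 1.016 complex V UMIs in Isl1CKO male cells and 0.999 in control male cells, but 0.794 and 1.018 in female cells. Ndufa13 was at 394 CPM in Isl1CKO and 408 CPM in control male cells, and at 213 and 389 CPM in female cells. Cox7a2l was at 67.2 and 62.5 CPM in male cells and at 121 and 70.2 CPM in female cells. The genotypes lay close in male cells for both genes and apart in female cells, Ndufa13 lower and Cox7a2l higher in Isl1CKO.

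Male and female cells were also compared inside each library. In the Isl1CKO library 15 of 79 members were called higher in male cells and 2 lower, while 14.8% and 15.6% of all genes were. In the control library 1 of 79 was higher, Ndufs5, and 0 lower, while 1.56% and 1% of all genes were. Ndufa3, a small complex I subunit, was at 153 CPM in male and 51.5 CPM in female Isl1CKO cells, a log2 ratio of 1.57 (1.51 to 1.64), and at 98.7 and 81.3 CPM in control cells. Atp5e was at 1059 and 575 CPM in Isl1CKO and at 816 and 832 CPM in control cells. Control male and female cells lay close for both genes, and Isl1CKO male cells lay above and female cells below them. Inside the alpha factor group 30 of 79 members were higher and 2 lower in Isl1CKO male over Isl1CKO female cells, while 20.2% and 18.2% of all genes were, and 1 of 78 was higher and 0 lower in control cells, while 2.39% and 1.9% were. In Isl1CKO cells of the beta factor group 12 of 79 members were higher and 4 lower in male cells, while 16.5% and 11.3% of all genes were, and in control cells 2 were higher and 1 lower, while 2.7% and 2.97% were. Among Isl1CKO insulin cells 14 of 80 members were higher and 3 lower in male cells, while 17.4% and 12% of all genes were. Of these counts only the 30 of the alpha factor group exceed the share of all genes by a wide margin.

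In the alpha factor group the 2 sexes differed for many members. Over both sexes 9 of 79 measured members were called higher in Isl1CKO and 1 lower, while 16.7% and 15.7% of all genes were, and the member median was 0.12. These counts were 3 and 8 when hormone genes were taken out of the totals, and 33 and 0 with unscaled CPM. In its male cells (316 Isl1CKO and 644 control) 20 of 79 were higher and 0 lower, while 12.4% of all genes were called in each direction, and the median was 0.38. In its female cells (1047 and 455) 7 of 78 were higher and 10 lower, while 20.4% and 21.8% of all genes were, and the median was -0.095. Of the 78 members measured in both sexes 64 had the higher ratio in male cells. Of these, 39 were above 0 in male and below 0 in female cells, 7 the reverse, 27 above 0 in both and 5 below 0 in both. The same counts over all genes are not given here, so these counts do not set the members apart from other genes.

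**Figure D3:**
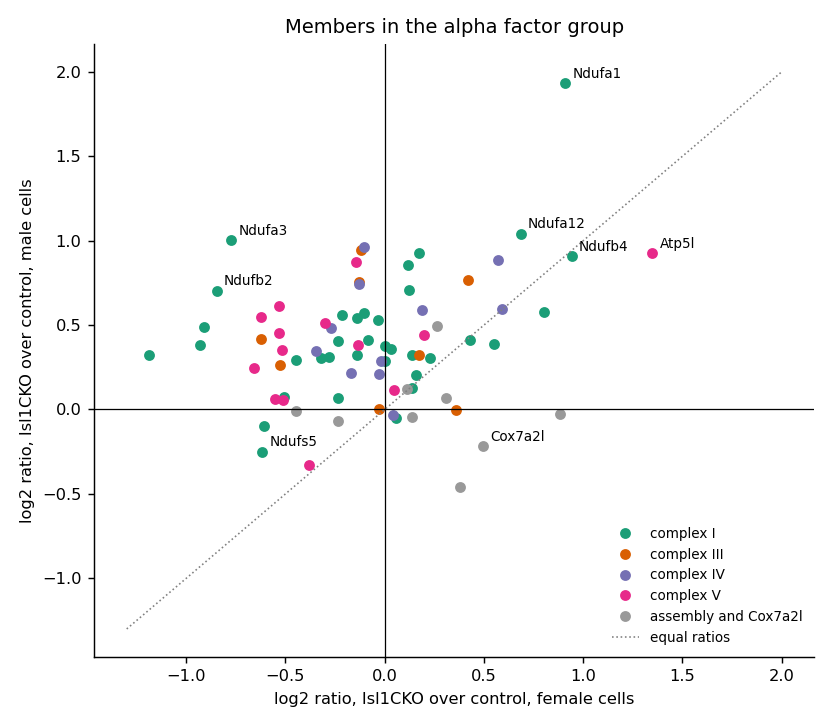
Log2 ratio of Isl1CKO over control in male cells (y axis) against that in female cells (x axis) of the alpha factor group, 1 point for each of the 78 members measured in both, with a dotted line of equal ratios. The 64 points above the dotted line have the higher ratio in male cells. No such count is given for all genes.

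Each complex was higher in the male alpha factor cells of Isl1CKO with this scaling. Complex I summed to 8585 CPM in Isl1CKO and 6084 CPM in control cells, a log2 ratio of 0.50 (0.48 to 0.52). Complex III was at 2473 and 1890 CPM (0.39), complex IV at 5716 and 4291 CPM (0.41) and complex V at 5669 and 4482 CPM (0.34). When the totals were taken without hormone genes, complex I was at 0.14 and complex V turned to -0.017. In female cells complex I was at 6057 and 6246 CPM (-0.044), complex III at 1820 and 1971 CPM (-0.12), complex IV at 4559 and 4498 CPM (0.019) and complex V at 3460 and 4601 CPM (-0.41). The cytosolic ribosomal protein genes went the other way, at 80974 CPM in Isl1CKO and 102762 CPM in control male cells and at 116258 and 109471 CPM in female cells. Isl1CKO male cells of the group were also deeper, with a median of 13746.5 UMIs against 7856 in Isl1CKO female cells, and 10254 and 9203 in control male and female cells. The part of depth in the split was not tested.

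**Figure D4:**
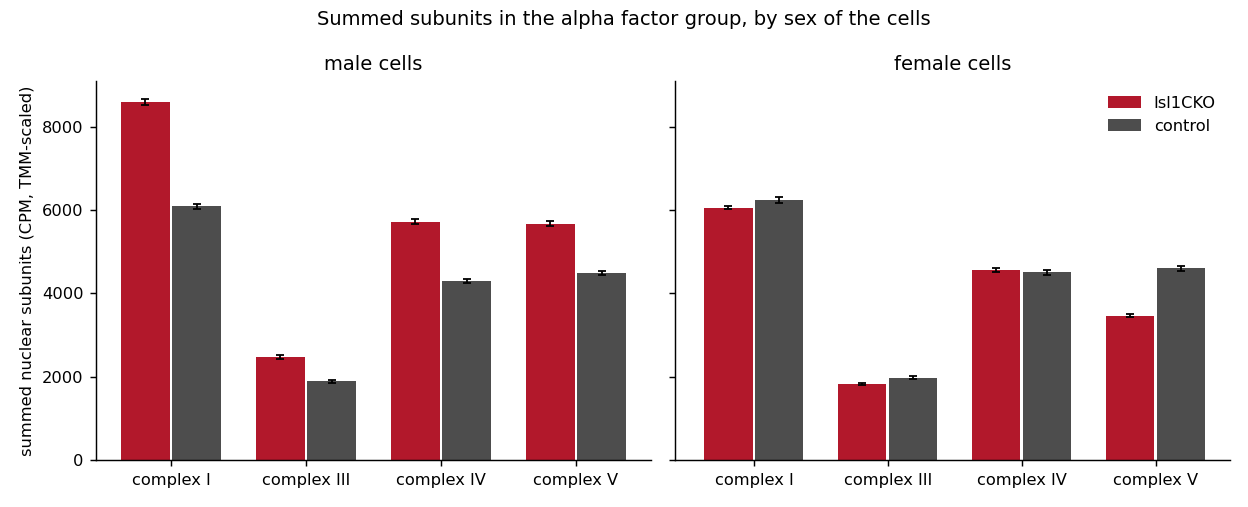
Summed level in CPM of the nuclear subunits of complexes I, III, IV and V in cells of the alpha factor group, male and female cells in separate panels, Isl1CKO left of control, with 95% counting intervals. In male cells all 4 complexes are higher in Isl1CKO (complex I 8585 against 6084 CPM), and in female cells complex V is lower (3460 against 4601 CPM).

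Several members show the split. Ndufa1 was at 869 CPM in Isl1CKO and 228 CPM in control male cells of the alpha factor group (log2 ratio 1.93, 1.85 to 2.02), and at 394 and 209.6 CPM in female cells (0.91, 0.81 to 1.01). It lay above control in both sexes. Ndufa3 was at 199.9 and 99.8 CPM in male cells (1.00, 0.87 to 1.14) and at 47.4 and 80.9 CPM in female cells (-0.77, -0.96 to -0.58). Ndufa4 was at 642 and 329 CPM in male cells and at 321 and 344 CPM in female cells. Uqcrq, a small subunit of complex III, was at 402 and 209 CPM in male and 209 and 227 CPM in female cells. These 3 members rose in male cells, and among them Ndufa3 fell in female cells.

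In the female alpha factor cells the lowest member was Ndufs8, at 33.4 CPM in Isl1CKO and 76.1 CPM in control cells (-1.19, -1.40 to -0.98), with 95.2 and 76.2 CPM in male cells. Ndufa13 was at 206 and 393 CPM in female cells (-0.93) and at 522 and 400.4 CPM in male cells (0.38). The supernumerary subunits Ndufc1 (-0.91) and Ndufb2 (-0.85) were also among the 10 called lower in female cells, both with a near-identical stretch elsewhere. Atp5e, the epsilon subunit, was at 580.1 and 894 CPM in female cells (-0.62) and at 1322 and 904 CPM in male cells (0.55). The testis isoform Cox6b2 was low in all these cells, at 16.2 CPM in Isl1CKO and 2.2 CPM in control male cells (2.82, 2.10 to 3.79) and at 3.10 and 2.63 CPM in female cells. Of the 7 members with the NRF1 core, 5 were measured in male cells, with Atp5k (0.87), Uqcrc1 (0.77) and Cox6a1 (0.74) called higher and Ndufa11 (0.54) and Ndufaf4 (0.12) not called, while 12.4% of all genes were called higher. As a whole the members were also called higher in these male cells more often than all genes. Ndufaf5 and Atp5g2 were below 5 CPM. In female cells the same 5 had ratios of -0.15, 0.42, -0.13, -0.14 and 0.11, and none was called.

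Over both sexes of the alpha factor group the 3 highest members were Cox6b2 (7.61 CPM in Isl1CKO and 2.42 CPM in control, 1.63), Atp5l (1.33) and Ndufa1 (564 and 227 CPM, 1.31), and the 3 lowest Ndufs5 (-0.66), Ndufs8 (-0.45) and Ndufb10 (-0.41). Cox5a and Cox6c, structural subunits of complex IV, were at 132 and 79.9 CPM (0.72) and at 550.3 and 337 CPM (0.71).

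In the beta factor group a smaller share of members than of all genes was called in either direction. With TMM 3 of 79 measured members were called higher in Isl1CKO and 7 lower, while 17.4% and 15.8% of all genes were, and the member median was -0.16. Unscaled CPM turned these counts to 29 higher and 1 lower, and totals free of hormone genes gave 2 and 18. The highest were Ndufa12 (1.12), Atp5l (0.78) and Cox7a2l (0.65), all 3 with a near-identical stretch elsewhere. Among the lowest were Ndufs5 (-1.27), Ndufs8 (59.5 CPM in Isl1CKO and 97.2 CPM in control, -0.71) and Ndufa13 (252 and 412 CPM, -0.71). Only 157 of the 709 control cells of this group had insulin as their sole hormone, 67 had somatostatin, 71 pancreatic polypeptide and 323 more than 1, so the group holds beta factors without being a pure beta cell group. In its insulin cells alone 2 of 79 members were higher and 8 lower, while 15.2% of all genes were called in each direction. Split by sex, 4 of 80 were higher and 5 lower in male cells, while 14.8% and 12.3% of all genes were, and 3 of 78 higher and 13 lower in female cells, while 15.6% and 19% were. With this scaling the member shares were below those of all genes in each sex and direction, and the male counts were nearly equal.

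The remaining factor groups differed among themselves. Cells with the delta cell factor Hhex (126 Isl1CKO and 558 control) had 4 of 79 members higher and 17 lower, while 16.3% and 20.3% of all genes were, with Atp5l (1.58), Ndufa12 (1.04) and Ndufb4 (0.98) highest and Ndufaf5 (-1.66), Ndufs5 (-1.55) and Ndufs8 (-1.17) lowest. Cells with several lineages' factors (1858 and 934) had 4 higher and 2 lower, while 14.8% and 16.2% of all genes were, with Atp5l (1.16), Ndufb4 (1.07) and Ndufa1 (0.67) highest and Ndufs5 (-1.24), Ndufb10 (-0.61) and Ndufa13 (-0.55) lowest. Cells with no factor UMI (1359 and 355) had 4 higher and 22 lower, while 16.5% and 22.9% of all genes were, with Atp5l (0.86), Atp5sl (0.85) and Cox7a2l (0.69) highest and Ndufs5 (-1.37), Ndufaf1 (-1.20) and Ndufs8 (-1.14) lowest. In these last cells complex V summed to 2968 CPM in Isl1CKO and 4340.2 CPM in control cells (-0.55) with TMM. The share of members lower, 22 of 79, was only a little above that of all genes. Per cell the nuclear subunits took a median of 1.97% of all UMIs in Isl1CKO and 1.85% in control. With hormone genes left out of the total the medians were 2.00% and 3.06%. The cells with no factor UMI were also shallow, with medians of 5264 UMIs in Isl1CKO and 6689 in control cells. Their median share of mitochondrial UMIs was 1.89% and 0.682%. The part of depth and of RNA quality was not tested.

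Hormone groups of the control library show the members' ordinary spread between islet cell types. Of 58 members at 100 CPM or more in at least 1 of the insulin, glucagon, somatostatin and pancreatic polypeptide groups, 51 differed by less than 1.5-fold between the highest and the lowest group, with a median of 1.27-fold. The same figures over all genes are not given here, so the members' spread is not set against that of other genes. Wider ranges were found for Cox5a (1.98-fold), Uqcrq (1.70-fold), Cox7b (1.66-fold) and Ndufa11 (1.62-fold), among others. In control insulin cells over control glucagon cells 8 of 79 members were higher and 1 lower, while 15.4% and 13.4% of all genes were. Above 0 were 61 of the 79 members, a count not given for all genes. The direction depends on the scaling, since unscaled CPM gave 1 higher and 35 lower and totals free of hormone genes 15 and 0. In somatostatin cells over glucagon cells 0 were called, while 14.2% of all genes were higher and 12.3% lower, and in pancreatic polypeptide cells 2 were higher and 0 lower, while 13.2% and 13.3% were. In insulin cells over somatostatin cells 3 were higher and 0 lower, while 10.6% and 10.3% of all genes were. Complex I summed to 7639 CPM in control insulin cells and 6041 CPM in control glucagon cells, and complex V to 4647 and 4518 CPM. These values come from 1 library and the groups were set by hormone UMIs alone.

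Insulin cells of the 2 libraries differed in insulin itself. Ins2 was at 78120 CPM in Isl1CKO and 794300 CPM in control insulin cells, and at a limit of 5% of UMIs there were 464 Isl1CKO and 203 control cells. In Isl1CKO over control insulin cells 2 of 79 members were higher and 8 lower, while 16.6% and 15.8% of all genes were. Above 0 were 23 members, a count not given for all genes. The members called lower included Ndufs5 (-1.23) and Ndufs8 (61.6 CPM in Isl1CKO and 106 CPM in control, -0.79). Cox5a was at 113 CPM in Isl1CKO insulin cells and 155 CPM in control insulin cells (-0.47), and at 78.4 CPM in control glucagon cells. With TMM complex I summed to 6424 and 7639 CPM (-0.25) and complex V to 3982 and 4647 CPM (-0.22). In single insulin cells the nuclear subunits took a median of 2.25% of all UMIs in Isl1CKO and 1.19% in control. With hormone genes left out of the total the medians were 2.67% and 3.65%, so the direction of this share depends on the total used. In male insulin cells alone 4 of 80 members were higher and 4 lower, while 12.8% and 11.4% of all genes were.

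In the few glucagon cells of the Isl1CKO library more members were higher than lower with TMM. They lie near the 1% limit that defines them, with Gcg at 20440 CPM in Isl1CKO and 357300 CPM in control glucagon cells, and at a limit of 5% there were 11 Isl1CKO and 1846 control cells. With the limit at 1%, 20 of 79 members were called higher and 0 lower, and 68 were above 0. Of all genes, 18.5% were called in each direction, and how many were above 0 is not given. In single glucagon cells the nuclear subunits took a median of 2.39% of all UMIs in Isl1CKO and 1.74% in control. With hormone genes left out of the total the medians were 2.49% and 2.83%, so the direction of this share depends on the total used. Complex I summed to 8525 CPM in Isl1CKO and 6041 CPM in control glucagon cells (0.50), complex IV to 6053 and 4352 CPM (0.48) and complex V to 4901 and 4518 CPM (0.12). Ndufa1 was at 938 and 218 CPM (2.11, 2.03 to 2.18), Cox5a at 184 and 78.4 CPM (1.23) and Cox6c at 671 and 335 CPM (1.00). For each complex IV UMI there were 0.810 complex V UMIs in Isl1CKO and 1.038 in control glucagon cells. These 172 cells were deeper than the 1572 control cells, at medians of 13239 and 9279 UMIs. The hormone-free cells, 86.3% of Isl1CKO and 2.34% of control endocrine cells, had 5 of 80 members higher and 3 lower, while 13.2% and 10.3% of all genes were.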

How the data were processed

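The authors deposited raw UMI counts per gene and barcode, 1 matrix per library with 46984 features, and no cell filter or normalization is in them. STARsolo (STAR 2.7.3a), Seurat 4.3.0.1 and GRCm38.p6 are named per the submitters' processing notes; how reads shared by near-identical genes were counted is not given in the sources used here. Endocrine cells had at least 1000 UMIs, 500 genes, at most 15% mitochondrial UMIs, at least 2 endocrine marker genes and under 1% of UMIs from non-endocrine markers. The marker rules left out 81 and 6 Isl1CKO cells and 14 and 12 control cells, for non-endocrine markers and for too few endocrine genes. Doublets were kept: Scrublet (scanpy 1.11.5) marked 0 Isl1CKO and 249 control cells, so it had not worked in Isl1CKO.

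UMIs were summed per cell group, since cells are not replicates and groups under 50 cells were left out. Sums were scaled once by TMM (edgeR 4.0.16, R 4.3.3) against the control endocrine sum. Log2 ratios add 1 to each sum and carry a 95% interval for the ratio of Poisson sums, exact given their total (scipy 1.17.1). Shares of cells have exact Clopper-Pearson intervals, and UMIs limit precision, so low members are the least certain. Free RNA was read from barcodes with at most 100 UMIs. Near-identical stretches were searched with BLAST 2.17.0 in the last 400 bases of transcripts of the GENCODE vM21 annotation.

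Members named are the highest of each complex, the 6 highest and 6 lowest ratios at 20 CPM or more over endocrine cells, the 3 highest and 3 lowest per factor group, isoform groups and core subunits. Ndufa3, Ndufa4, Ndufa13, Ndufc1, Ndufb2, Uqcrq, Atp5e, Cox5a, Cox6c and Atp5l elsewhere, the X-linked members and the members with the NRF1 core were chosen after their values were seen. Some members and factors that these rules cover are not reported here. The members and lists were chosen with earlier results of these data known. The scripts were tested on simulated counts.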

Additional observations from a re-analysis of the deposited data

Results flagged for a closer look

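In the alpha factor group the summed level of complex I was higher in Isl1CKO than in control male cells, at a log2 ratio of 0.50 (0.4968), and lower in female cells, at -0.04 (-0.04445). That of complex V was at 0.34 (0.3388) in male cells and at -0.41 (-0.4112) in female cells. These 4 values are named because the ratios of the 2 sexes had opposite signs under the same comparison. For complex I the genotypes lay close in female cells, so there the sexes differ mainly in the male value. The signs hold with TMM: with unscaled CPM complex I in female cells was at 0.37, and with totals free of hormone genes complex V in male cells was at -0.017. The difference between the sexes was not tested, since each library holds 3 pooled mice and male and female cells come from different ones.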

How the results depend on the processing

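No paired analysis was possible because there is 1 library per genotype and the labels give them a single shared replicate number, and with 1 library each no library was left out. The 2 libraries limit every comparison, and shallow groups and low members limit it further.

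Scaling moved the set as a whole. The shares of all genes called under the other scalings and filters are not given, so the member counts in this section do not set the members apart from other genes. Unscaled CPM raised the log2 ratio of all genes by 0.54 over endocrine cells, and turned the summed levels positive, to 0.45 for complex I, 0.45 for III, 0.51 for IV and 0.31 for V. With it, members called higher and lower numbered 25 and 0 over endocrine cells, 33 and 0 in the alpha and 29 and 1 in the beta factor group, 20 and 0 in female and 43 and 0 in male cells, and 1 and 35 in control insulin over glucagon cells. It also reversed Ndufaf1 (0.052), Ndufaf3 (0.086) and Ndufb10 (0.01) in the beta factor group, Ndufa4 (-0.17), Ndufa11 (-0.067), Ndufb8 (-0.15) and Cox7b (-0.034) in control insulin over glucagon cells, and complex I in female alpha factor cells (0.37).

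When totals were taken without hormone genes, the counts were 2 higher and 14 lower over endocrine cells, 3 and 8 in the alpha factor group, 18 lower in the beta factor group, 2 and 24 in female cells, 4 lower in male cells and 15 and 0 in control insulin over glucagon cells. The sums were then -0.28, -0.29, -0.23 and -0.43 for complexes I, III, IV and V, complex V in male alpha factor cells turned to -0.017, and the median share of nuclear subunits in a control cell was 3.00%. DESeq2 1.42.0 size factors gave sums of -0.13, -0.13, -0.075 and -0.27.

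Over endocrine cells the members called lower numbered 1 with at least 3000 UMIs, with at most 5% mitochondrial UMIs, with the highest Scrublet scores left out or without cells lacking hormone and factor, 6 with cells weighing equally, 5 with no filter on low counts and 11 in female cells alone. At 2-fold 1 was higher and 1 lower. Sums for complexes I, III, IV and V were -0.072, -0.077, -0.019 and -0.22 with at least 3000 UMIs, -0.071, -0.076, -0.018 and -0.22 with at most 5% mitochondrial UMIs, and -0.22, -0.20, -0.16 and -0.35 with cells weighing equally. Without the highest Scrublet scores complexes I and V were at -0.077 and -0.23.

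The member median minus the median of all genes was -0.007 over endocrine cells with no filter on low counts and 0.075 in male cells alone. With no filter it was 0.056 in the beta factor group, 0.13 in female cells and -0.039 in control insulin over glucagon cells. With cells weighing equally it was -0.024 in the alpha factor group and -0.043 in male cells. Members called lower numbered 3 in the alpha factor group with cells weighing equally and 0 with at least 2 factor UMIs, and 0 in control insulin over glucagon cells with cells weighing equally or the hormone at 5% or more. The cause of these shifts was not tested. The alternatives for the alpha factor sums by sex were chosen after seeing the data.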
